A study of Mus musculus with 2 samples.

Results

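Transcripts of 32 mouse genes of the lysosome and of the vacuolar proton pump (V-ATPase) that acidifies it were followed in single cells of the periosteum, the connective tissue sheath of bone, from an uninjured tibia and from a tibia 3 days after fracture. The genes came from a named list, and all 32 were found by symbol among the 31055 features of both count matrices. By role they were 11 proton pump subunits, 8 genes of the lysosomal membrane and of cholesterol export, 4 hydrolases and hydrolase activators, 7 proteases and 2 protease inhibitors. They were described in 4 classes of cells: macrophage-like cells (C1q transcripts), osteoclast-like cells (Acp5), MHC class II-like cells, and cells of the Prx1Cre lineage, which carry the EGFP reporter and are called EGFP lineage cells below.

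Both libraries came from Prx1Cre;mTmG mice, in which Cre driven by Prx1 switches the reporter from tdTomato to EGFP in limb mesenchyme and its descendants. Cells grew out of periosteal explants at 33 °C, with bFGF (10 ng/mL) and 20% serum in the medium, and were used at passage 0, so that both groups passed through culture. All live cells entered the 10x Genomics 3′ libraries without a sort for EGFP. One library was from uninjured periosteum (day 0) and 1 from periosteum at day 3 after tibial fracture. No source used here gives the age of the mice or how many were pooled. With 1 library per group there is no replicate and no test: the values below compare these libraries, and their intervals (95%) cover counting error only.

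Lysosomes break down material delivered by endocytosis, phagocytosis and autophagy with hydrolases that work at acid pH. The V-ATPase pumps protons through its membrane sector V0, driven by ATP hydrolysis in its peripheral sector V1. Cathepsins are the main lysosomal proteases, and cystatins and stefins inhibit the cysteine cathepsins. In bone, osteoclasts place the V-ATPase in their ruffled border to acidify the resorption pit, while macrophages use the same machinery to digest what they engulf.

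The promoters are shown first because many of the genes share a short motif in them, which their choice did not use. RefSeq promoters (GRCm38.p6, 250 bases before to 50 bases after the start site) were matched by symbol for 26 of the 32 genes; Atp6v1b2, Atp6v1c1, Atp6v1h, Npc1, Ctsb and Cstb had no entry. The 6 letters CACGTG, which read the same on both strands and are the core of the E-box bound by the MiT/TFE family of transcription factors, were found in 10 of the 26 (38.5%), against 8.09% of 27025 genes with a promoter in the table. The longer TCACGTG, searched on both strands and containing the shorter motif, was found in 9 of 26 (34.6%), against 4.29% of all genes. The motifs were not particular to the 32 genes. Of 67 genes with a promoter from the further pathway lists described below, 15 (22.4%) held CACGTG and 14 (20.9%) held TCACGTG. Genes with CACGTG were Atp6v0b, Atp6v0d1, Atp6v0e, Atp6v1a, Mcoln1, Lamp1, Glb1, Ctsd, Lgmn and Ctsl, and Ctsl alone had the shorter form without the longer. A match describes the letters of a window and is neither a bound site nor a cause of any level below. The stretches below belong to genes whose levels are described in detail further on, Lamp1 and Atp6v0b with repeats of the motif among them. In the GENCODE gene spans used further on, the stretches of Lgmn, Ctsd, Atp6v1a and Ctsl lie inside the gene. Those spans begin farther upstream than the RefSeq start sites from which distances are counted here. Each stretch is written 5′ to 3′ on the gene's strand, upstream of the RefSeq start site, with CACGTG in capitals.
Lamp1 (chr8:13159088-13159160, + strand): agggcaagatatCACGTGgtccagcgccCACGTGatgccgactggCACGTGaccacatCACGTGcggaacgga
Atp6v0b (chr4:117887330-117887377, − strand): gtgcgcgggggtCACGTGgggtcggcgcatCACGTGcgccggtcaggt
Lgmn (chr12:102439124-102439153, − strand): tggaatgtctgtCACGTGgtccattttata
Ctsd (chr7:142387908-142387937, − strand): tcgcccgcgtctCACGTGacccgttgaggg
Atp6v1a (chr16:44139373-44139402, − strand): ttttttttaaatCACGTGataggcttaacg
Ctsl (chr13:64370739-64370768, − strand): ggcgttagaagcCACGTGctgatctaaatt
Lamp1 held 4 copies between 61 and 15 bases before the start site, and Atp6v0b held 2 copies, at 36 and 18 bases. The single Lgmn copy lay 49 bases before the start and the copy of Atp6v1a 131 bases before it. The copy shown for Ctsd lay 98 bases before the start and another at 245 bases, and that of Ctsl lay at 236 bases. In macrophage-like cells, 6 of the 10 genes with CACGTG passed 2-fold at day 3, and so did 6 of the 15 matched and measured genes without it, in a comparison where 33.9% of all genes did.

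After filtering, 4269 uninjured and 12573 day-3 cells remained, with medians of 19397 and 7449 UMIs per cell. Macrophage-like cells numbered 1154 uninjured (cluster 3 held 1140) and 4389 at day 3 (clusters 0, 1, 6 and 20 held all but 82), so that the libraries filled this class from different clusters. Osteoclast-like cells numbered 83 and 624, all in cluster 10, and EGFP lineage cells 2208 and 3349, although the labels call all the cells Prx1-derived. Lineage cells are those with the reporter transcript, and their day-3 cluster 4 had the mast cell and basophil protease gene Mcpt8 among its leading genes. MHC class II-like cells numbered 123 at day 3 (cluster 24) and 1 in the uninjured library, which gave no uninjured value. The classes carried their markers: summed C1q transcripts reached 5650 and 2593 CPM (counts per 1000000 UMIs of the class) in macrophage-like cells, Acp5 reached 2467 and 4174 CPM in osteoclast-like cells, and EGFP 2564 and 1843 CPM in lineage cells (uninjured, then day 3). MHC class II-like cells at day 3 held 12513 CPM of summed MHC class II transcripts and also 2393 CPM of C1q. Thresholds set after the clusters were seen kept other cells out: cells with EGFP and C1q together were 14.5% of the uninjured and 2.65% of the day-3 library, and unnamed clusters 4.38% and 19%. By Y-linked and Xist transcripts the uninjured cells of these classes that could be called were male, with 1 exception. At day 3, 67.5% of the macrophage-like, 76.4% of the osteoclast-like and 68.9% of the lineage cells were female. Over all cells, sex therefore cannot be told apart from injury across the libraries. Male cells were present in both libraries, and a count from male macrophage-like cells alone is given further on. Although the labels name 1 kit version, the cell barcodes of the libraries began with 480 and 960 distinct 7-letter starts, of which 129 were common, and 3 whole barcodes were shared; barcode set and injury cannot be told apart either.

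The 32 genes together made up 1.73% of all UMIs of macrophage-like cells in the uninjured library and 3.12% at day 3. The share was 1.78% and 1.99% in osteoclast-like cells, 1.62% in MHC class II-like cells at day 3, and 0.529% and 0.591% in EGFP lineage cells. When every cell was thinned to 3000 UMIs, the median macrophage-like cell held 51 UMIs of the 32 genes in the uninjured library and 93 at day 3. The median lineage cell held 16 in both libraries, and the median osteoclast-like cell 51 and 59. Cells below 3000 UMIs were left out of this count, 56 uninjured and 558 day-3 macrophage-like cells among them.

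**Figure D1:**
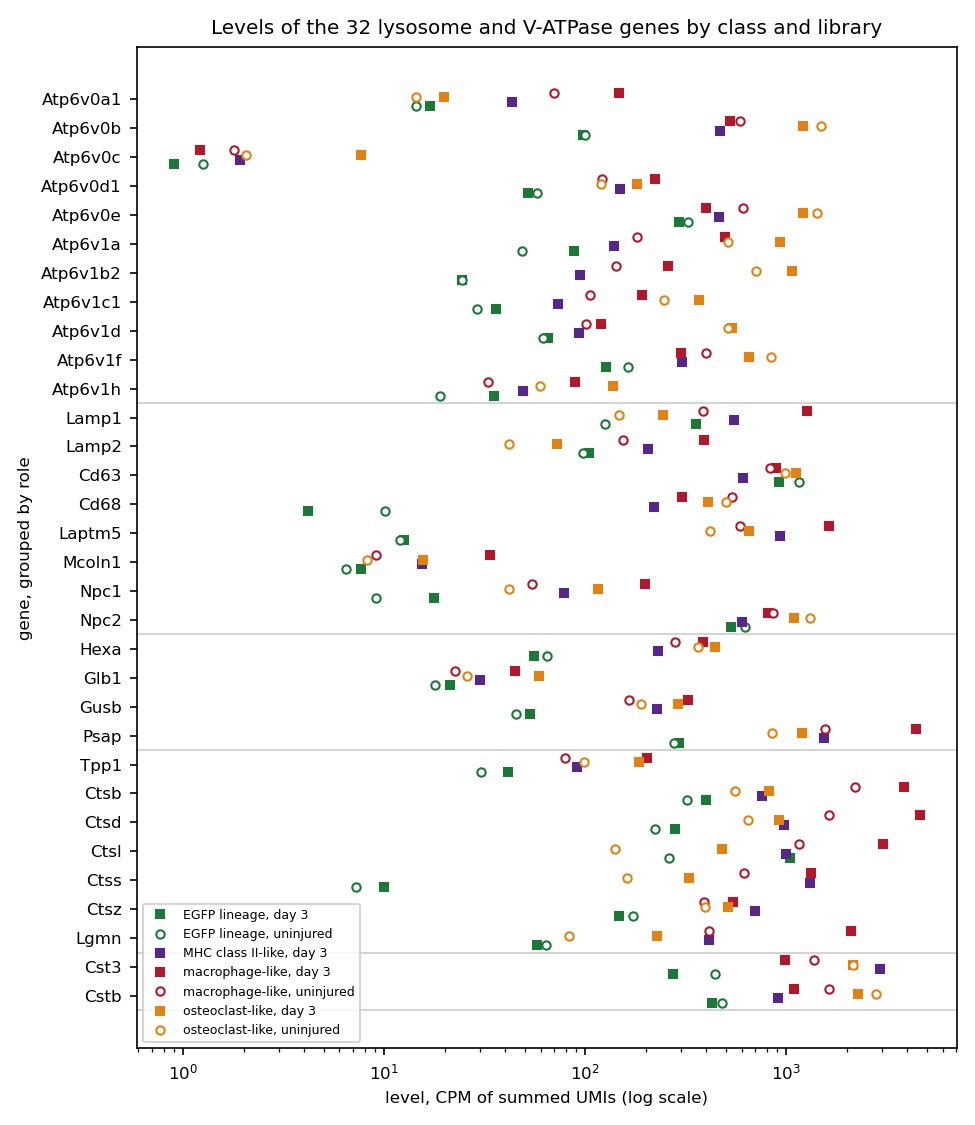
Level of each gene in CPM of summed UMIs (log axis), by class (colour) and library (open circles uninjured, filled squares day 3), with grey lines between the role groups; there are no replicates and therefore no error bars. Red macrophage-like symbols lie to the right among the proteases and Psap, orange osteoclast-like symbols to the right among the proton pump genes, and green lineage symbols lie lowest for most genes.

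Each myeloid class carried more transcript of most of the genes than the EGFP lineage did. A gene was counted where it reached 10 CPM in either class and differed at least 2-fold. In macrophage-like cells 23 of 30 genes were higher than in lineage cells in the uninjured library, where 17.5% of all genes were, and 27 of 31 at day 3, where 27.9% of all genes were. None was lower, against 17.8% and 16.6% of all genes. In osteoclast-like cells 22 of 30 (16.5% of all genes) and 26 of 31 (18.7%) were higher. In MHC class II-like cells 20 of 31 were higher at day 3 (20.5% of all genes) and none lower (18.8%). One gene was at least 2-fold lower in osteoclast-like than in lineage cells in each library, namely Lamp2 uninjured and Ctsl at day 3, against 24.7% and 19.1% of all genes. Both turned when lineage cluster 19 alone stood for the lineage, to log2 ratios of 0.37 for Lamp2 and 0.055 for Ctsl. The tetraspanin Cd63 was not lowest in lineage cells: it measured 835 and 887 CPM in macrophage-like, 985 and 1118 CPM in osteoclast-like and 1162 and 924 CPM in lineage cells, and was lowest in MHC class II-like cells at 609.7 CPM.

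Levels of Ctss, Laptm5 and Cd68 in lineage cells were low and, as shares of the macrophage-like level, near that of the C1q transcripts. The summed C1q transcripts, which lineage cells should lack, stood in them at 1.42% of the macrophage-like level in the uninjured library and 0.638% at day 3. For Ctss the same share was 1.18% and 0.756%, for Laptm5 2.05% and 0.767%, and for Cd68 1.86% and 1.39%. The uninjured Ctss share was 0.83 times that of C1q, and the other values of these 3 genes were 1.19 to 2.18 times the C1q share. The part of free RNA in these values was not tested. The other 29 genes were at least 4.26 times the C1q share in both libraries, the least being Lgmn at day 3.

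Between the libraries the ratios differed by class, for the members and for all genes. Macrophage-like cells at day 3 held more transcript of proteases, of Psap and of several membrane genes. The 14 genes past 2-fold there were picked by their macrophage-like ratio, so smaller ratios in the other classes follow in part from that choice. Among them, Ctsl alone had a larger ratio in osteoclast-like cells, and in lineage cells Ctsl and Lamp1 alone were at least 2-fold higher. Of 31 members at or above 10 CPM in macrophage-like cells, 14 were higher by 2-fold or more at day 3 and none lower, while 33.9% of 8285 genes were higher and 4.65% lower. The members' share was thus not far above that of all genes, which had a median log2 ratio of 0.66 against 0.97 for the members. With TMM scaling, which moves all macrophage-like ratios by 0.46 on the log2 scale, 8 members were higher and 3 lower (14.3% and 12.5% of all genes). Relative to the median of all genes, 4 were higher (Lgmn, Mcoln1, Npc1 and Lamp1) and 5 lower (Cd68, Atp6v0e, Cstb, Cst3 and Atp6v1f), against 8.55% and 16.7% of all genes. In osteoclast-like cells 6 of 31 members were higher and none lower, against 20% and 2.74% of 7676 genes, with a median log2 ratio of 0.58 for the members and 0.47 for all genes, a share close to the background. With cells chosen by marker UMIs in place of clusters, 13 members were higher, against 18.1% of all genes. TMM scaling left 3 higher and 0 lower (8.98% and 5.99% of all genes), and centring 2 higher and 0 lower (6.14% and 8.79%). In lineage cells 2 of 30 were higher and 1 lower, against 17.3% and 6.26% of 8131 genes, with medians of 0.08 and 0.19, a smaller share higher than among all genes. These 3 comparisons share no cells but share the 2 libraries. Ratios below are on the CPM scale, before any centring.

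**Figure D2:**
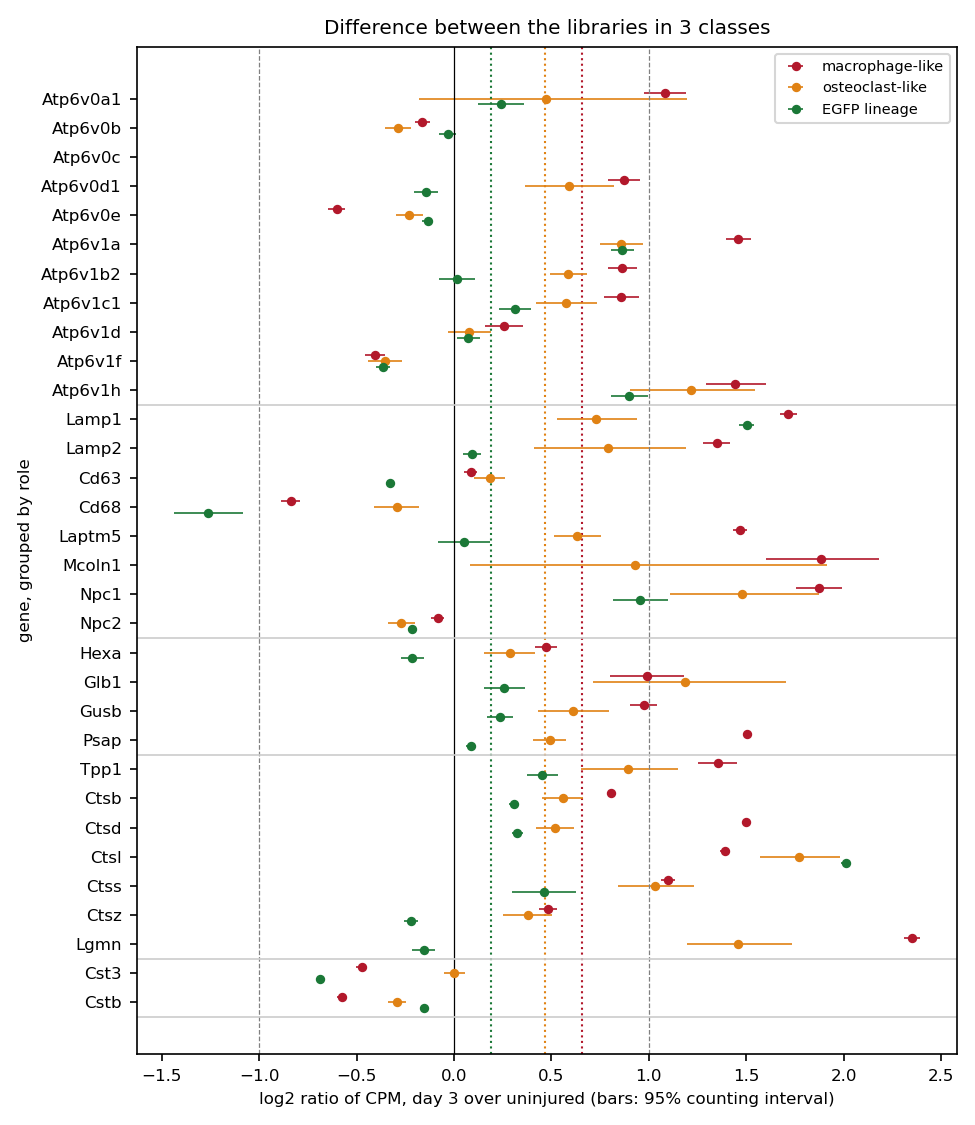
Log2 ratio of CPM, day 3 over uninjured, for each gene at or above 10 CPM in macrophage-like (red), osteoclast-like (orange) and EGFP lineage cells (green); bars are 95% counting intervals, dashed lines mark 2-fold, and dotted lines the median of all genes in each class. Lgmn lies farthest right in macrophage-like cells at 2.35 and left of 0 in lineage cells at -0.16, while Ctsl lies beyond 1 in all 3 classes.

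The macrophage-like ratios moved with the clusters that made up the class. Cluster 3 was the one cluster with at least 50 macrophage-like cells of both libraries (1140 uninjured, 58 at day 3). Within it, 4 of 30 genes passed 2-fold at day 3, namely Ctsl, Lamp1, Npc1 and Ctss, and none was lower, against 20% and 9.47% of all genes in that cluster, with a median log2 ratio of 0.47 beside 0.27 for all genes. In this cluster the Lgmn ratio was 1.80 (1.5 to 2.14) in place of 5.10 over the class. Restricting both libraries to male cells gave 15 of the genes higher in place of 14, and leaving out cycling cells gave 14. Cycling cells were 61.8% of the uninjured and 31.0% of the day-3 macrophage-like cells, median UMIs 10264.5 and 5387, and the median mitochondrial share 2.85% and 4.26%. In osteoclast-like cells cycling cells were 50.6% and 42.9%, median UMIs 18195 and 15652, and the mitochondrial share 4.45% and 5.81%. In lineage cells the same values were 64.1% and 69.3%, 24194 and 32035, and 2.55% and 4.37%. The part of explant culture, depth and mitochondrial share in these differences was not tested.

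Among the proton pump genes, osteoclast-like cells had the highest class level in both libraries for all 6 V1 subunits and for Atp6v0b and Atp6v0e of V0. The uninjured ranking lacks MHC class II-like cells, which had no value there. Atp6v1b2, the B subunit of the catalytic head (chromosome 8, 69088646 to 69113711, + strand, GRCm38), measured 711 CPM uninjured and 1067 CPM at day 3 in osteoclast-like cells. It measured 142 and 259 CPM in macrophage-like cells, 94.5 CPM in MHC class II-like cells at day 3, and 24.3 and 24.5 CPM in lineage cells. The osteoclast-like level was therefore 5.0-fold the macrophage-like level uninjured (4.63 to 5.40) and 4.13-fold at day 3 (4.00 to 4.25). Atp6v1d, a stalk subunit that links the sectors, showed the same order, with 512 and 541 CPM in osteoclast-like against 101 and 120.3 CPM in macrophage-like cells. Of the 10 pump genes at or above 10 CPM, 7 were at least 2-fold higher in osteoclast-like than in macrophage-like cells uninjured and 5 at day 3, against 9.01% and 8.71% of all genes. At day 3, Atp6v1a and Atp6v1c1 were short of 2-fold, at 1.86 and 1.91.

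One V0 subunit went the other way. Atp6v0a1, an isoform of the large membrane subunit a, measured 14.4 and 19.9 CPM in osteoclast-like cells against 69.7 and 148 CPM in macrophage-like cells, 4.86-fold and 7.40-fold lower. Tcirg1, which encodes the a3 isoform known from osteoclasts and is not one of the 32 genes, measured 175 and 476 CPM in osteoclast-like and 50.6 and 229.9 CPM in macrophage-like cells. The d subunits differed likewise: Atp6v0d1 was at 120.3 and 181 CPM in osteoclast-like and 122 and 222 CPM in macrophage-like cells, while its isoform Atp6v0d2, also outside the 32, was at 305 and 658 CPM against 4.22 and 22.6 CPM. Atp6v0d2 was among the leading genes of the osteoclast-like cluster, so its level there is a description of that cluster.

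Between the libraries, the summed pump level and the median subunit gave different pictures. The summed level, to which genes with many UMIs contribute most, was 1.17-fold higher at day 3 in macrophage-like cells, 1.07-fold in osteoclast-like cells and 0.995-fold in lineage cells. The median log2 ratio of the 10 measured subunits was 0.86, 0.52 and 0.04 in the same order, beside 0.66, 0.47 and 0.19 for all genes. In macrophage-like cells 7 of the 10 had ratios above 1, as did most of all genes. In macrophage-like cells the catalytic subunit Atp6v1a went from 181 to 498 CPM (2.75-fold, 2.63 to 2.88) and the regulatory Atp6v1h from 32.8 to 89.3 CPM (2.72-fold). The small subunits Atp6v0e and Atp6v1f were lower, at 0.658-fold and 0.754-fold. Atp6v1h was also the highest pump ratio in osteoclast-like (2.33-fold) and lineage cells (1.87-fold), followed by Atp6v1a at 1.81 and 1.82. Atp6v1f and Atp6v0b gave the lowest in osteoclast-like cells, at 0.782 and 0.819, and Atp6v1f and Atp6v0d1 in lineage cells, at 0.777 and 0.906. Atp6v0a1 (2.12-fold) was the remaining pump gene past 2-fold in macrophage-like cells. Atp6v1c1 stayed under 2-fold in these 3 classes, and so did Atp6v1d, whose osteoclast-like ratio of 1.06 had an interval that spanned 1 (0.978 to 1.14). Atp6v0c, the proteolipid ring subunit, was below 10 CPM in all 4 classes and was not counted; reads can be shared with its near-identical copies Atp6v0c-ps1 and Atp6v0c-ps2, so its values are uncertain.

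Of the 8 membrane genes, 5 were at least 2-fold higher at day 3 in macrophage-like cells, 1 in osteoclast-like cells and 1 of 7 measured in lineage cells, where 33.9%, 20% and 17.3% of all genes were. Lamp1, an abundant glycoprotein of the lysosomal membrane (chromosome 8, 13159161 to 13175338, + strand), measured 388 CPM uninjured and 1274 CPM at day 3 in macrophage-like cells, 3.29-fold higher (3.19 to 3.39). In lineage cells it went from 125 to 355 CPM, 2.83-fold (2.76 to 2.90), and in osteoclast-like cells from 148 to 245 CPM, 1.66-fold. The 5 lineage clusters of each library did not overlap for Lamp1: uninjured clusters ranged from 49.5 to 158 CPM and day-3 clusters from 170.4 to 428 CPM. The day-3 lineage clusters also all lay above the uninjured ones for Ctsl and below them for Cd68, and they overlapped for the other 29 genes. No share of all genes is given for this order, and clusters of 1 library are not replicates.

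The other high membrane ratios in macrophage-like cells were those of Mcoln1 and Npc1. Mcoln1, the calcium channel TRPML1, went from 9.09 to 33.6 CPM in macrophage-like cells (3.69-fold, 3.03 to 4.53), and Npc1, the cholesterol exporter of the lysosomal membrane, from 54.4 to 199 CPM (3.66-fold, 3.38 to 3.98). Npc1 was also 2.79-fold higher in osteoclast-like cells and 1.94-fold in lineage cells, from 9.15 to 17.8 CPM. Its soluble partner Npc2, which hands cholesterol to Npc1, did not share this: its ratios were 0.944, 0.829 and 0.861 in the same order of classes. In cluster 3 alone, Mcoln1 had a ratio of 0.624 (0.0157 to 3.55), on the other side of 1 from the class value. In lineage cells Mcoln1 was below 10 CPM.

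The remaining membrane genes were led by those of leukocytes. Laptm5, a lysosomal membrane protein of blood cells, measured 589.6 and 1630.0 CPM in macrophage-like, 419 and 650.0 CPM in osteoclast-like and 929 CPM in MHC class II-like cells. Lamp2, a relative of Lamp1 with a role in autophagy, was 2.54-fold higher at day 3 in macrophage-like cells and lower in osteoclast-like than in macrophage-like cells in both libraries (3.68-fold and 5.42-fold). Cd68, the glycosylated macrophage marker of late endosomes, ran against the group. It was at 540.0 CPM uninjured and 302 CPM at day 3 in macrophage-like cells (0.559-fold, 0.541 to 0.577) and at 502 and 409 CPM in osteoclast-like cells (0.815-fold). Its lineage level of 10.1 and 4.19 CPM, 0.417-fold, was the single lower call there. Summed C1q in the same cells went from 80.2 to 16.6 CPM, whose part in the Cd68 value was not tested, and the call was lost without cycling cells.

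Psap was the one gene of the hydrolase group past 2-fold in macrophage-like cells, and its product is cut into the saposins that activate sphingolipid hydrolases. It measured 1564 CPM uninjured and 4441 CPM at day 3 in macrophage-like cells, 2.84-fold higher (2.80 to 2.88). The level was 849 and 1194 CPM in osteoclast-like, 1547 CPM in MHC class II-like and 277 and 294 CPM in lineage cells, where the ratio was 1.06. Gusb (beta-glucuronidase) and Glb1 (beta-galactosidase) were 1.96-fold and 1.98-fold higher at day 3 in macrophage-like cells, just under the 2-fold line, and 1.53-fold and 2.28-fold in osteoclast-like cells. Hexa, a subunit of beta-hexosaminidase, was 1.39-fold higher in macrophage-like cells and 0.862-fold in lineage cells, which put it on opposite sides of 1. In both libraries, Hexa, Glb1 and Gusb each differed by under 1.5-fold between osteoclast-like and macrophage-like cells.

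All 7 proteases had ratios above 1 at day 3 in macrophage-like and osteoclast-like cells. Most of all genes did so too, with median log2 ratios of 0.66 and 0.47, and Ctsz lay below the median of all genes in both. Their summed share of UMIs in macrophage-like cells was 0.649% uninjured and 1.57% at day 3, a ratio of 2.42. The ratio was 1.67 in osteoclast-like and 1.84 in lineage cells. At least 2-fold higher were 5 of the 7 in macrophage-like cells, 3 in osteoclast-like cells and Ctsl alone in lineage cells, against 33.9%, 20% and 17.3% of all genes. Relative to the median of all genes, 1 protease, Lgmn, passed 2-fold in macrophage-like cells.

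Lgmn encodes legumain, the asparaginyl endopeptidase that also processes cathepsins (chromosome 12, 102394084 to 102439813, − strand). It had the highest macrophage-like ratio of the 32 genes, from 414 CPM uninjured to 2110.4 CPM at day 3, 5.10-fold (4.95 to 5.24). The day-3 macrophage-like clusters ranged widely: 3044 CPM in cluster 0, led by Mmp12 and Arg1, 1835 in cluster 1, led by Mrc1 and Stab1, 1658 in the dividing cluster 6, 1385 in cluster 20 and 742 in the 58 day-3 cells of cluster 3, all above the 412 CPM of uninjured cluster 3. Within day 3, male and female macrophage-like cells were close, at 2022 and 1997 CPM of Lgmn. In osteoclast-like cells Lgmn was at 83.4 and 229 CPM and in lineage cells at 63.9 and 57.4 CPM, 0.898-fold. The share of macrophage-like cells with a Lgmn UMI at 3000 UMIs per cell was 68.8% and 96.8% (91.5% and 99.2% before thinning), and that of lineage cells 20.0% and 15% (74.6% and 72.0%).

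Ctsl was the single gene of the 32 at least 2-fold higher at day 3 in all 3 comparable classes. Cathepsin L (chromosome 13, 64359337 to 64370890, − strand) is a cysteine protease that is also secreted. In lineage cells it went from 260.3 to 1049.6 CPM, 4.03-fold (3.96 to 4.10), the highest lineage ratio of the genes. Uninjured lineage clusters ranged from 168 to 281 CPM and day-3 lineage clusters from 369 to 1750.1 CPM, with the top value in cluster 9, led by Mmp3, Nppc and Il33. Cluster 19, which held lineage cells of both libraries (84 and 212), gave 168 and 463 CPM. Macrophage-like cells held 1162 and 3045 CPM (2.62-fold) and osteoclast-like cells 141 and 481 CPM (3.42-fold). At day 3 the osteoclast-like level was 2.18-fold below that of the lineage; the level in MHC class II-like cells, 996 CPM, was close to the lineage value (0.949-fold, 0.891 to 1.01).

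Cathepsins D and B differed both between the libraries and between the classes. Ctsd, an aspartic protease, went from 1631 to 4613 CPM in macrophage-like cells (2.83-fold, 2.79 to 2.87) and Ctsb, a cysteine protease, from 2192 to 3833 CPM (1.75-fold). In osteoclast-like cells both were lower than in macrophage-like cells of the same library, Ctsd 2.53-fold and 4.99-fold and Ctsb 3.93-fold and 4.66-fold. Ctss, the cathepsin of antigen-presenting cells, was at 618 and 1325 CPM in macrophage-like cells and at 1317 CPM in MHC class II-like cells, whose interval against the day-3 macrophage-like level spanned 1 (0.994-fold, 0.941 to 1.05). Tpp1, a tripeptidyl peptidase, was 2.55-fold and Ctsz, a carboxypeptidase, 1.40-fold higher at day 3 in macrophage-like cells. The 2 lowest protease ratios were those of Ctsz and Ctsb in macrophage-like cells, of Ctsz (1.30) and Ctsd (1.43) in osteoclast-like cells, and of Ctsz (0.859) and Lgmn in lineage cells.

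Set against each other in the same library, pump and proteases ordered the myeloid classes differently. Osteoclast-like cells had 2.52-fold (uninjured) and 2.30-fold (day 3) the summed pump level of macrophage-like cells but 0.321-fold and 0.222-fold their summed protease level. Of the 7 proteases 5, namely Ctsb, Ctsd, Ctsl, Ctss and Lgmn, were at least 2-fold lower in osteoclast-like cells in both libraries, where 16.7% and 20.3% of all genes were lower, and none was higher. The largest of these differences were 8.26-fold for Ctsl uninjured and 9.22-fold for Lgmn at day 3. Ctsk, the collagen-degrading cathepsin of osteoclasts and not one of the 32 genes, went the other way, at 1249 and 2267 CPM in osteoclast-like against 9.66 and 42.8 CPM in macrophage-like cells; it was among the leading genes of cluster 10. MHC class II-like cells had 13 of 31 genes at least 2-fold lower than macrophage-like cells at day 3 (15% of all genes), among them Lgmn (5.13-fold) and Ctsb (5.06-fold), and 1 higher, Cst3 (5.87% of all genes).

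**Figure D3:**
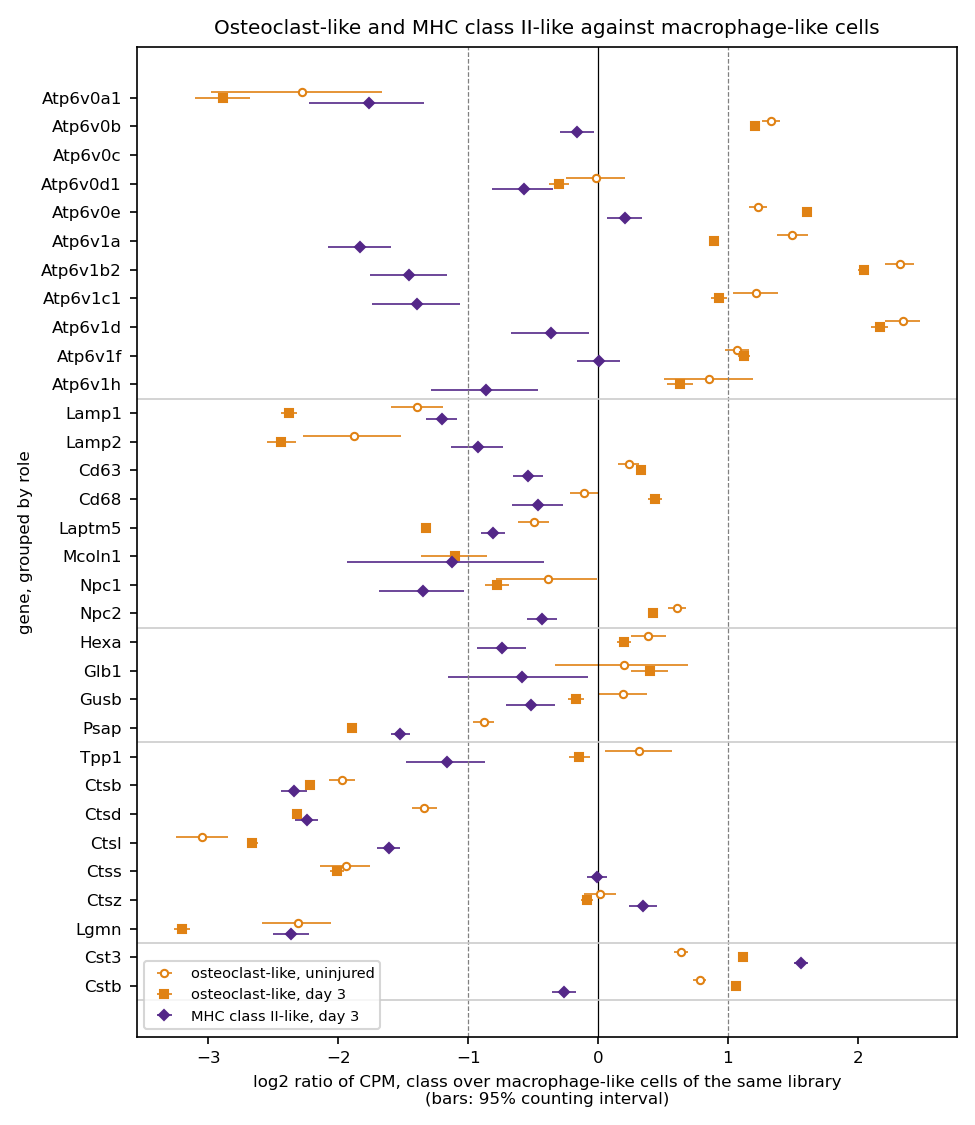
Log2 ratio of CPM over macrophage-like cells of the same library for osteoclast-like cells (open circles uninjured, filled squares day 3) and MHC class II-like cells (diamonds, day 3), genes at or above 10 CPM; bars are 95% counting intervals and dashed lines mark 2-fold. Osteoclast-like symbols lie right of 0 for most pump genes and the inhibitors and left of it for Lamp1, Lamp2, Psap and 5 proteases, with Atp6v0a1 far left and Atp6v0d1 at or left of 0 among the pump genes.

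**Figure D4:**
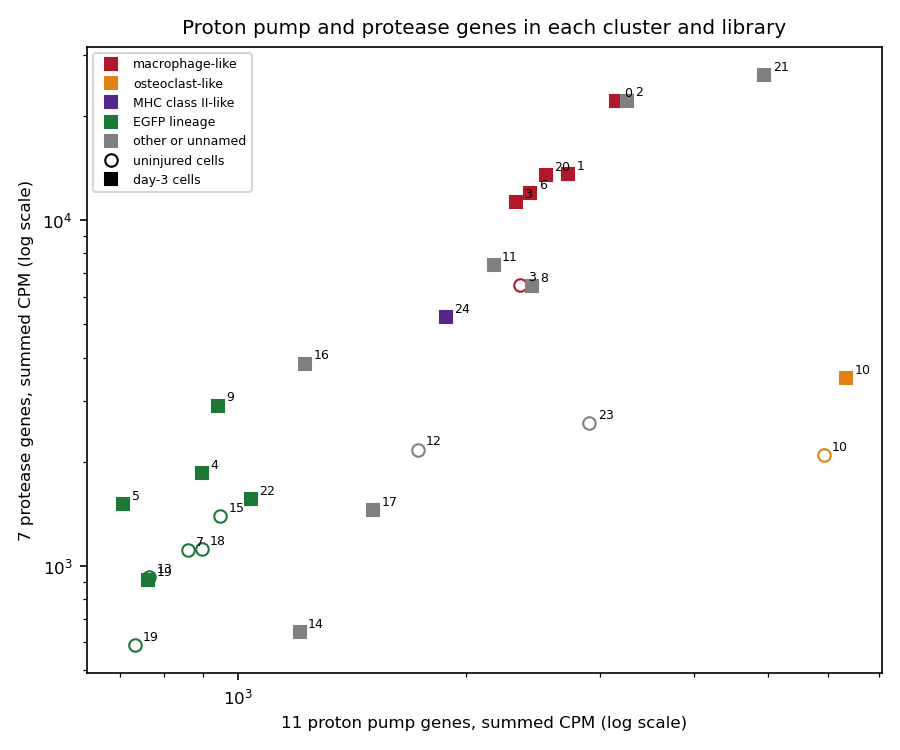
Summed CPM of the 11 pump genes against the 7 protease genes (both log axes), 1 symbol per cluster and library with at least 50 cells, labelled by cluster number and coloured by class. The osteoclast-like cluster 10 lies far right at moderate protease levels, and the macrophage-like clusters lie higher, with uninjured cluster 3 below all day-3 macrophage-like clusters in protease level.

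Neither inhibitor was higher at day 3 beyond its counting interval in any class. Cst3 (cystatin C, a secreted inhibitor of cysteine cathepsins; chromosome 2, 148871722 to 148875692, − strand) was at 1375 CPM uninjured and 990.3 CPM at day 3 in macrophage-like cells (0.720-fold, 0.706 to 0.734) and at 441 and 274 CPM in lineage cells (0.621-fold, 0.611 to 0.631). In osteoclast-like cells it stood at 2141 and 2142 CPM, a ratio of 1.00 (0.963 to 1.04). Its highest level was in MHC class II-like cells, 2927 CPM, 2.96-fold the macrophage-like level of the same library (2.85 to 3.07). Cstb (stefin B, the cytosolic inhibitor) was at 1628 and 1092 CPM in macrophage-like cells (0.671-fold), 2799 and 2285 CPM in osteoclast-like cells (0.816-fold) and 477 and 428 CPM in lineage cells (0.898-fold). Neither reached 2-fold between the libraries in any class. At day 3 both were at least 2-fold higher in osteoclast-like than in macrophage-like cells, 2.16-fold and 2.09-fold.

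Over all 3 classes, 19 genes had ratios above 1 in each and 6 below 1 in each (Atp6v0b, Atp6v0e, Atp6v1f, Cd68, Npc2 and Cstb), and 7 were mixed. Of the 30 members at or above 10 CPM in all 3 comparisons, 60% had ratios above 1 in each and 20% below 1, close to the 52.8% and 19.3% of 6480 genes tested alike. These signs are those of CPM. Relative to the median of all genes, Atp6v1d, Cd63, Hexa and Ctsz lay on the lower side in macrophage-like and osteoclast-like cells, as the dotted lines of the plot of day-3 ratios show, and with TMM scaling Atp6v1d and Cd63 did in both and Hexa in osteoclast-like cells.

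The rest of the pathway was taken from 6 lists with 86 further genes. The other V-ATPase genes had 5 of 7 measured members at least 2-fold higher at day 3 in macrophage-like cells, 4 of 7 in osteoclast-like and 1 of 6 in lineage cells, and none lower. They ranged from Atp6v1g1 (0.715-fold) to Atp6v0d2 (5.36-fold) in macrophage-like cells, and Tcirg1 was highest in osteoclast-like (2.72-fold) and lineage cells (2.22-fold). Among 28 other lysosomal hydrolases at or above 10 CPM, 16 were higher in macrophage-like cells, from the fucosidase Fuca1 (0.689-fold) to the galactosylceramidase Galc (4.43-fold), 5 of 28 in osteoclast-like cells, with Pla2g15 lowest (0.622-fold), and 1 of 17 in lineage cells (Galc, 2.78-fold), where Fuca1 was the 1 lower (0.491-fold). Among the other proteases 4 of 6, 1 of 6 and 2 of 5 were higher, with the lowest and highest ratios those of Ctsc (1.79) and Ctsk (4.43), Ctso (1.39) and Scpep1 (2.52), and Scpep1 (0.922) and Ctsc (3.05) in the order macrophage-like, osteoclast-like and lineage. Among other membrane and sorting genes 12 of 19, 3 of 17 and 1 of 11 were higher; Tmem192 was lowest in each class (0.701, 0.581 and 0.667), and the amino acid transporter Slc36a1 was highest in macrophage-like (4.72) and osteoclast-like cells (5.31, 1.77 to 26.2) and the mannose 6-phosphate receptor Igf2r in lineage cells (2.70). These counts share the background of the 32 genes in each class (33.9%, 20% and 17.3% of all genes higher).

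Of 7 measured regulators of lysosomal genes, 4 were at least 2-fold higher in macrophage-like cells, 0 of 7 in osteoclast-like and 0 of 3 in lineage cells. None was lower, and 33.9%, 20% and 17.3% of all genes were higher. Relative to the median of all genes, 1 of the 7 was higher and 1 lower in macrophage-like cells, against 8.55% and 16.7% of all genes. Mitf, of the MiT/TFE family, went from 23.0 to 73.4 CPM in macrophage-like cells (3.19-fold) and from 73.1 to 143 CPM in osteoclast-like cells (1.95-fold), the highest ratios of the regulator list there, while the kinase Mtor was lowest in all 3 classes, at 0.660, 0.892 and 1.22. Tfe3 led the list in lineage cells (1.40-fold, 22.0 and 30.7 CPM). Of 8 other cystatins and stefins none reached 10 CPM in macrophage-like cells, and in lineage cells the secreted cystatin Cst6 went from 3.44 to 57.9 CPM (16.8-fold, 14.6 to 19.5). In osteoclast-like cells Cst7 was at 16.4 and 23.3 CPM, and BC100530, a stefin gene that also led the neutrophil cluster, had 0 UMIs uninjured and 10.6 CPM at day 3. The neutrophil transcript S100a8 went from 6.15 to 194 CPM in the same cells, and its part in that value was not tested.

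Within the day-3 library, male and female cells and cycling and other cells could be set side by side. The log2 difference, female minus male cells, had a median over the 32 genes of −0.04 in lineage cells (from −0.38 for Cd68 to 0.34 for Ctsl). It was −0.06 in macrophage-like cells (−0.32 to 0.09) and 0.06 in osteoclast-like cells (−0.76 to 0.53), where single genes went both ways. The log2 difference of cycling minus other cells had a median of −0.22 in lineage, −0.35 in macrophage-like and −0.31 in osteoclast-like cells. Exceptions with higher values in cycling cells were Atp6v0b and Gusb in lineage cells, Atp6v0c in macrophage-like cells, and Ctsl (0.48), Lamp1 (0.31), Lamp2 (0.11), Ctss and Lgmn in osteoclast-like cells. Ctsl in lineage cells was at 926 CPM in cycling and 1488 CPM in other cells at day 3, against 251 and 283 CPM in the uninjured library, so the higher day-3 level was present in both kinds of cell.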

How the data were processed

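Single cells were sequenced in 2 libraries, 1 uninjured and 1 at day 3 after fracture. The labels' molecule field reads genomic DNA, but the protocol is one for 3′ transcripts and the files hold UMI counts per gene, so the values were treated as RNA. The deposited matrices hold whole-number UMI counts per gene and cell barcode; they were made with Cell Ranger (software version 3.1.0 per the file headers) on mm10, and Seurat 4.0.1 is listed, per the submitters' processing notes. No source used here gives the cell-calling method. They held 4573 and 16332 barcodes with 94034112 and 227191961 UMIs; 3 barcode sequences occurred in both.

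Barcodes with under 500 genes or 1000 UMIs (69 and 1412) or over 10% mitochondrial UMIs (73 and 457) were removed. Scrublet's automatic threshold marked 0 and 0 doublets and was not used; the highest scores were removed instead, at 0.8% per 1000 barcodes (162 and 1890). Cells were clustered together (scanpy 1.11.5, leidenalg 0.10.2; 2000 variable genes without the members and pathway lists, 30 components, 15 neighbours, resolution 1), without integration. Clusters were named from markers; lineage clusters needed 500 CPM of EGFP and at most 10% of the macrophage-like C1q level. UMIs were summed per class and library and given as CPM with exact Poisson intervals; ratios have exact conditional binomial intervals. A gene counts in a comparison at 10 CPM in either class, and is called at 2-fold. TMM factors came from edgeR 4.0.16, as an alternative scaling only. Beyond all members, values are given for the 2 highest and 2 lowest ratios of each role group in each class, and for the highest and lowest ratio of each other list, of which 1 value is not reported here. The ratio rule was tested on simulated data. The members and lists were chosen with earlier results of these data known. Gene positions are from GENCODE M21 (GRCm38, the same assembly as mm10).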

Additional observations from a re-analysis of the deposited data

Results flagged for a closer look

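Lgmn, Atp6v0d1, Ctsz, Hexa and Cd63 were higher at day 3 in both myeloid classes and lower in EGFP lineage cells, with counting intervals clear of 1 on both sides. The difference itself was not tested, since each class has 1 library per group. It is given as the log2 day-3 ratio of the myeloid class minus that of the lineage. For Lgmn it was 2.5 in macrophage-like and 1.61 in osteoclast-like cells. For Atp6v0d1 it was 1.01 and 0.73, for Ctsz 0.70 and 0.60, and for Hexa 0.69 and 0.50, in the same order. For Cd63 it was 0.42 and 0.51. Relative to the median ratio of all genes in each class (0.66, 0.47 and 0.19), Lgmn and Atp6v0d1 were above it in both myeloid classes and below it in the lineage, whereas Cd63, Hexa and Ctsz lay below the median in all 3 classes. Within macrophage-like cluster 3, Hexa (0.905, 0.659 to 1.21) and Cd63 (0.867, 0.723 to 1.03) were below 1, and the others stayed above it. Within lineage cluster 19, Lgmn was at 1.12 (0.639 to 2.07), and the others stayed below 1. Of these, Cd63 alone had an interval clear of 1. The share of all genes with such opposite directions is not given here.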

How the results depend on the processing

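No paired analysis was possible because each group has 1 library, and no replicate could be left out. Of 157 recomputed counts of members past 2-fold, 144 were within 1.5 times the value reported and 13 were not. In macrophage-like cells the count higher at day 3 (14) was 8 with TMM scaling, 4 with ratios centred on the median of all genes, and 4 in cluster 3 alone, where 58 day-3 cells remain; the count lower (0) was 3 with TMM and 5 when centred. In osteoclast-like cells the count higher (6) was 13 with cells chosen by marker UMIs, 3 with TMM and 2 when centred. In lineage cells the count lower (1, Cd68) was 0 without cycling cells, at 3000 UMIs, at no more than 5% mitochondrial UMIs and at a minimum of 50 CPM, and 2 when the EGFP clusters rich in C1q were added. Counts of members higher than in the lineage stayed within 1.5 times in every setting run. Using clusters 3, 10 and 19 alone turned the sign of 4 log2 ratios that had been beyond 2-fold. Mcoln1 between the libraries in macrophage-like cells became −0.68. Lamp2 in uninjured and Ctsl in day-3 osteoclast-like over lineage cells became 0.37 and 0.055. Mcoln1 in day-3 osteoclast-like over macrophage-like cells became 1.47. The single lower calls against the lineage, Lamp2 and Ctsl, were thereby lost. Smaller ratios between the libraries turned sign in these clusters as well. Among them were Hexa in macrophage-like cells (from 0.47 to −0.14) and Atp6v1h in lineage cells (from 0.90 to −0.31). Settings with median-centred ratios, without cluster 4, with C1q-rich EGFP clusters, with the shallow cluster 2 and with clusters 3, 10 and 19 alone were chosen after seeing the data. No value was possible for MHC class II-like cells between the libraries (1 uninjured cell), for male cells of that class, or for uninjured osteoclast-like cells without cycling cells or at resolution 2 (under 50 cells). Atp6v0c had no value under some settings, with 0 UMIs on one side. Of the single-gene log2 ratios recomputed, 2671 stayed within their counting interval, 1924 moved out of it and 4 turned sign from beyond 2-fold. Few UMIs limit small classes: in the 83 uninjured osteoclast-like cells Atp6v0c, Mcoln1, Atp6v0a1 and Glb1 rested on 3, 12, 21 and 38 UMIs.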

Other observations

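The highest levels of 13 of the 32 genes were outside the 4 classes, in the unnamed cluster 21 (214 day-3 cells, led by Mmp12, Rgs1 and Cxcl3). There the members summed to 50046 CPM, with 26168 CPM of proteases and 4949 CPM of pump genes; Ctsd reached 9904 CPM, Psap 9404 CPM and Ctsl 5869 CPM. Its median depth was 2745.5 UMIs per cell, its median mitochondrial share 2.90%, and its C1q level 13.6% of that of the macrophage-like cells. Cluster 2 (1265 day-3 cells, median 1805 UMIs), kept unnamed for its low depth, had the highest level of 4 further genes. Among them were Lgmn at 5428 CPM and Laptm5 at 2559 CPM. The part of shallow depth in these levels was not tested. No share of all genes highest in clusters 21 and 2 stands beside these counts.

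Other day-3 myeloid cells spanned the range of the members. Monocyte-like cluster 11 (628 cells) summed to 20923 CPM, with 1393 CPM of Ctss and 1926 CPM of Cst3. Neutrophil-like cluster 14 (431 cells) summed to 4119.8 CPM, of which 642 CPM were proteases and 1206 CPM pump genes, and was the 1 day-3 myeloid cluster in which the pump exceeded the proteases besides cluster 10 and the precursor-like cluster 17 (1509 and 1449.9 CPM). Cells with EGFP and C1q together lay between lineage and macrophage-like cells, at 8861 CPM in uninjured cluster 12 and 9353 CPM in day-3 cluster 16; whether they are doublets or carry free RNA was not tested.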
